A study of Mus musculus with 18 samples.

Results

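Mouse embryonic stem cells of the CGR8 line that had received both a Foxd3 plasmid and a plasmid for CA-NFATc3 were compared with cells that had received the CA-NFATc3 plasmid alone. The groups, Foxd3+CA-NFATc3 and CA-NFATc3, were chosen by the sample titles and hold 3 arrays each, 6 of the 18 arrays of the series. The prefix CA usually stands for constitutively active. Both groups were thus given the CA-NFATc3 plasmid, and they differ by the label Foxd3. The comparison asks what changes when Foxd3 is added to cells that carry active NFATc3. The labels describe cells grown in serum with LIF, the cytokine that maintains mouse stem cells in culture, transfected by lipofection and lysed in Trizol for total RNA. Other transfected groups of 3 arrays were Foxd3 alone and the empty vector. A last pair of groups, also of 3 arrays each, were conditional knockout cells, Foxd3fl/fl:Cre-ERT, given tamoxifen for 2 days or DMSO (0 days of tamoxifen). The labels call the samples of a group biological replicates but do not say whether they were separate cultures, so p-values measure the spread between these samples, which may be technical. Neither the promoters of the plasmids, the share of cells transfected nor the time after transfection was stated in the labels.

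NFAT proteins are transcription factors that wait in the cytoplasm until the calcium-dependent phosphatase calcineurin removes their phosphates, after which they enter the nucleus and often act with AP-1 factors. Among their best known targets is Rcan1, which binds calcineurin and inhibits it. Foxd3 is a forkhead transcription factor of pluripotent cells and of the neural crest, and mouse embryos without it lose the epiblast. Leaving the pluripotent state, stem cells can pass through a primed, epiblast-like state towards neuroectoderm, or take up genes of the extraembryonic lineages, trophectoderm and primitive endoderm.

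The values are signals, the brightness of a probe set after background correction and scaling by the authors, and each gene is read by its brightest probe set. The median signal was 59.3 to 67.1 in the Foxd3+CA-NFATc3 arrays and 56.2 to 63.5 in the CA-NFATc3 arrays. The 3'/5' ratio of actin, which rises as RNA degrades, was 2.31 ± 0.0945 with Foxd3+CA-NFATc3 and 2.23 ± 0.0265 with CA-NFATc3 (SD, n = 3). All 8 stem cell markers were over the signal needed for testing, 65.8, in both groups. Their summed signal was 99300 to 110000 with Foxd3+CA-NFATc3 and 109000 to 112000 with CA-NFATc3. By limma 0 of the 8 were called, and 1 had an unadjusted p under 0.05. The number of arrays limits the precision of every value below.

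The Foxd3 transcript itself went against the label. Its 1 probe set gave 277, 210 and 214 in the arrays labelled Foxd3+CA-NFATc3, against 463, 408 and 483 in the CA-NFATc3 arrays. The groups did not overlap, and the log2 difference was -0.87 ± 0.13 (SE; limma adjusted p = 0.000452). In the Foxd3 arrays it averaged 237 ± 5.95 and in the vector arrays 443 ± 55.9 (SD, n = 3), again lower under the label Foxd3 (-0.81, adjusted p = 0.00169). The position of this probe set on the transcript is not known here, and a probe set outside the inserted sequence would not read a plasmid. Directions below therefore hold for the arrays labelled Foxd3+CA-NFATc3 against those labelled CA-NFATc3. Nfatc3 gave 1849, 1795 and 1806 in the arrays labelled Foxd3+CA-NFATc3, against 1719, 1796 and 1681 in the CA-NFATc3 arrays, overlapping groups (0.07 ± 0.06, adjusted p = 0.672). The position of its probe set is not known here either. These values therefore cannot show whether the CA-NFATc3 plasmid was expressed equally in the groups.

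In limma, 711 of 11610 genes tested differed between Foxd3+CA-NFATc3 and CA-NFATc3, 6.12% of them. Of these 428 were lower (3.69%) and 283 were higher (2.44%) with Foxd3+CA-NFATc3. At 2-fold or more, 133 were lower and 59 higher. In 704 of the 711 the 3 arrays of one group all lay above the 3 of the other, which 20.4% of all genes tested did. The median difference of all genes was 0.00 on the log2 scale. With the replicate number as a block 1258 genes were called (724 lower, 534 higher), and without CA-NFATc3 replicate 3 the count was 385 (416 with the same genes tested). Differences are log2 of signal plus 32, with their SE and the adjusted p of limma. That offset makes differences of dim genes smaller. Where both means were over 65.8, a fold printed comes from this difference, so it holds for signal plus 32 and can be below the ratio of the signals. Where a group mean was under 65.8, any fold printed is a lower bound, at least the brighter mean over the dimmer with its low arrays set to 65.8, and a log2 difference printed alone is the fitted value, not a bound. In a culture of mixed cells, fewer cells of a type and less RNA per cell cannot be told apart.

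The 15 largest falls were in genes of varied function. S100g, the vitamin D-regulated calcium-binding protein calbindin-D9k, gave 33.3, 53.6 and 71.3 with Foxd3+CA-NFATc3, against 3267, 3876 and 5046 with CA-NFATc3. Every array of the first group was thus far below every array of the second, and the group means lay at least 60.1-fold apart (-5.60 ± 0.19, adjusted p = 1.06e-10). Gsn encodes gelsolin, which severs actin filaments, and gave 352, 276 and 278 with Foxd3+CA-NFATc3, against 4771, 6257 and 7076 with CA-NFATc3, an 18-fold difference (-4.17 ± 0.19). Lgals7, an epithelial galectin, gave 55.0, 14.7 and 14.3 with Foxd3+CA-NFATc3, against 490, 339 and 984 with CA-NFATc3 (at least 9.19-fold lower). Dmkn, a protein secreted by skin epithelium, gave 131, 98.4 and 105 with Foxd3+CA-NFATc3, against 941, 973 and 1546 with CA-NFATc3 (-3.01 ± 0.20). The groups of these genes did not overlap, which the rule that chose the 15 required. Cyp26a1, the enzyme that degrades retinoic acid, gave 27.9, 51.0 and 22.3 with Foxd3+CA-NFATc3, against 483, 372 and 595 with CA-NFATc3 (-2.97 ± 0.24, at least 7.34-fold). The remaining large falls were in Cav1 (-2.99), Cryab, a small heat shock protein (-2.92), Spink1, a trypsin inhibitor (-2.91), the lipid kinase gene Dgkk (-2.75), Ptgs2 (-2.66), Tac1, the substance P precursor (-2.57), and Elf5 (-2.40). Srgn, a proteoglycan core protein (-2.32), Cobll1 (-2.31) and Mgp, an inhibitor of calcification (-2.29), followed. The call of Mgp ended without the offset.

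**Figure D1:**
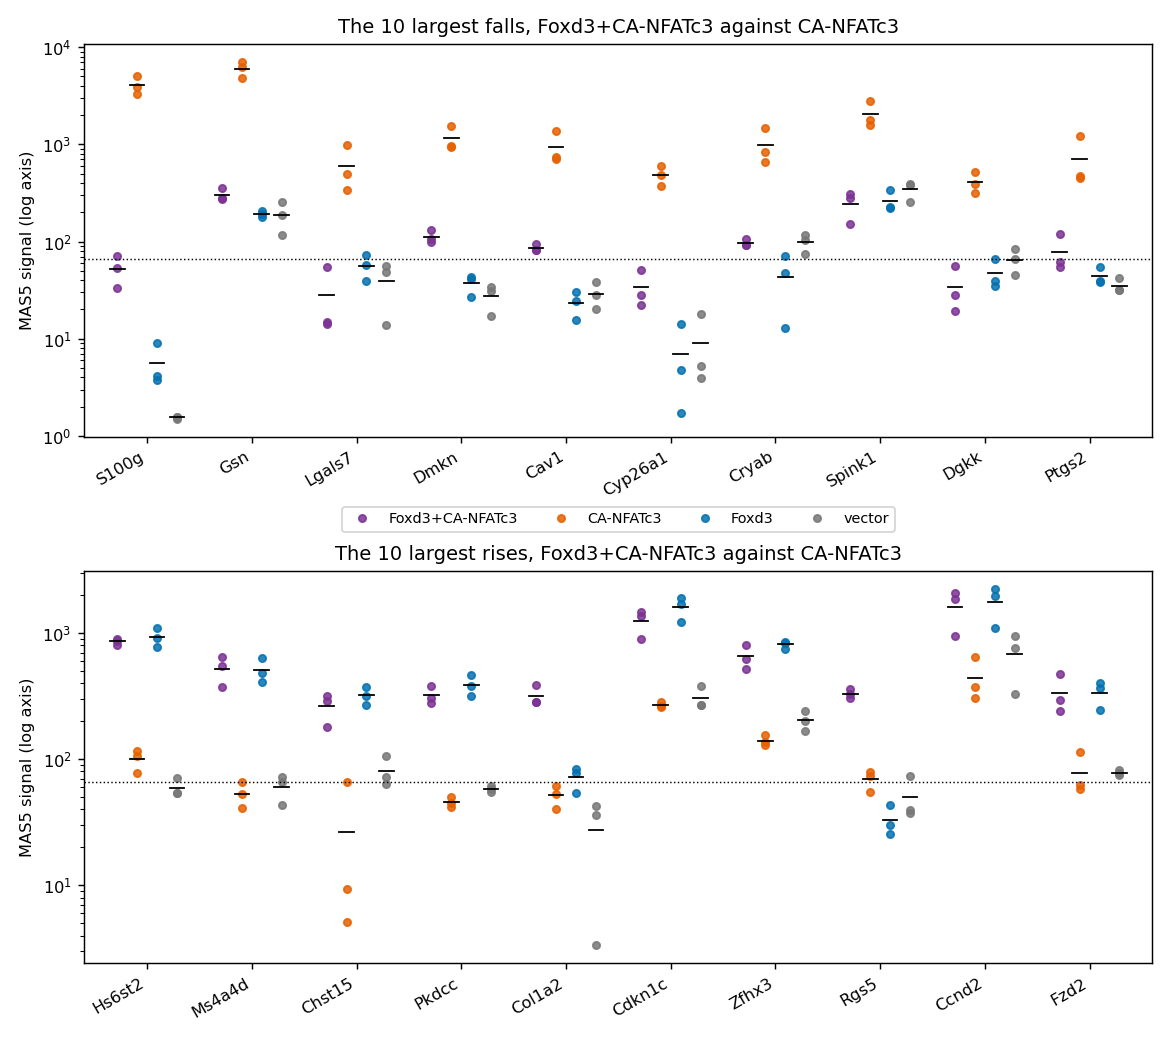
MAS5 signal per array on a log axis for the genes with the 10 largest falls (upper panel) and the 10 largest rises (lower panel); points are arrays, bars are means of 3 arrays, and the dotted line marks the signal needed for testing, 65.8. In each gene the Foxd3+CA-NFATc3 arrays lie wholly on one side of the CA-NFATc3 arrays, as the rule that chose the genes required. The Foxd3 and vector arrays are shown beside them.

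These genes were bright with CA-NFATc3 and much dimmer in the other transfected groups. S100g averaged 52.7 ± 19 (SD, n = 3) with Foxd3+CA-NFATc3, 4063 ± 904 with CA-NFATc3, 5.64 ± 3.01 with Foxd3 and 1.55 ± 0.0409 with vector. Gsn averaged 302 ± 43.4 with Foxd3+CA-NFATc3, 6034 ± 1168 with CA-NFATc3, 193 ± 14.9 with Foxd3 and 187 ± 70.0 with vector. The Foxd3 and vector arrays were set against each other as well. The group means of this difference share no array with the first, but both differences came from the same fit and share its variance estimates. Between Foxd3 and vector Gsn did not pass (0.09, adjusted p = 0.898), and both groups of S100g were under 65.8, so that no difference could be read.

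NFAT, forkhead and AP-1 factors bind short DNA motifs, and the promoters of 3 genes that moved far were chosen for print because each holds a match. Those of Gsn, Lgals7, Cav1, Cyp26a1, Ptgs2, Pkdcc and Zfhx3 hold none of the 4 motifs. The windows are 250 bases upstream of the first start listed by RefSeq (GRCm38.p6), 5′ to 3′ on the gene's strand. Capitals mark a motif match on either strand, for TGGAAA (the NFAT core), TGTTTAC (the forkhead core), TGANTCA (AP-1) and CATTCC (TEAD); matches were counted per motif, whether or not they overlap another motif. S100g, with 1 forkhead match, lies at chrX:162964600-162964849 on the minus strand, Dmkn, with 1 AP-1 match, at chr7:30763506-30763755 on the plus strand, and Hs6st2, the largest rise on the log2(signal + 32) scale, with 1 NFAT match, at chrX:51681603-51681852 on the minus strand.
S100g: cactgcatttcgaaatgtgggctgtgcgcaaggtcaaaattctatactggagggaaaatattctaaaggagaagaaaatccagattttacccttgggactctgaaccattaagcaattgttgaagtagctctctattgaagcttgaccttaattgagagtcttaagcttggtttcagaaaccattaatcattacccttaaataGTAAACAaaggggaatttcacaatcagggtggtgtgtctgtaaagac
Dmkn: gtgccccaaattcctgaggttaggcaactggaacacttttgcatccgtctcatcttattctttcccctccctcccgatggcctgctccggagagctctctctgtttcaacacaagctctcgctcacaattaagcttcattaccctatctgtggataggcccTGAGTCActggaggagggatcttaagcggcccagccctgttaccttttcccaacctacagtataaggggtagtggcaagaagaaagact
Hs6st2: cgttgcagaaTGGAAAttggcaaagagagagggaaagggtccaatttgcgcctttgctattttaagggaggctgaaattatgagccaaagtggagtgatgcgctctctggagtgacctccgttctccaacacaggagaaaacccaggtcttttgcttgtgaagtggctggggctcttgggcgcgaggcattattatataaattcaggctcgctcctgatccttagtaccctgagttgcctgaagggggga

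Over the 334 of 428 lower genes whose promoter was found, 14.7% held the NFAT core, 3.29% the forkhead core, 7.49% AP-1 and 12% TEAD. Over 219 of the 283 higher genes the shares were 16.9%, 1.83%, 3.2% and 10% in the same order. Over 8860 genes tested but not called they were 14%, 2.1%, 3.76% and 10.4%. Over all 32851 promoters listed they were 18.6%, 3.17%, 6.75% and 12.6%. A match is a description of the letters in this window and no evidence of binding.

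Among NFAT and calcium-response genes, the called falls included the feedback inhibitor but none of the NFAT genes. Rcan1 gave 1432, 1384 and 1508 with Foxd3+CA-NFATc3, against 3235, 3274 and 4597 with CA-NFATc3. The groups lay far apart, 2.50-fold (-1.32 ± 0.11, adjusted p = 2.35e-06). It was the 1 called gene of 17 tested in the calcineurin and NFAT list, whose median was 0.03. Nfatc1 (-0.55, adjusted p = 0.397), Nfatc2 (0.01, adjusted p = 0.994) and Nfatc4 (0.15, adjusted p = 0.477) did not pass. The other Nfatc1 probe sets, all too dim for testing, lay at -0.77, -0.68, -0.44 and 0.20. Of 8 calcium-response genes 4 were lower, for a list median of -0.70. Ptgs2, the inducible cyclooxygenase, gave 60.9, 54.5 and 119 with Foxd3+CA-NFATc3, against 474, 456 and 1215 with CA-NFATc3, a 6.33-fold difference. The nuclear receptor Nr4a1 (-0.81 ± 0.11, adjusted p = 0.000285) and the zinc finger factors Egr1 (-1.71 ± 0.45, adjusted p = 0.0303) and Egr2 (-1.37 ± 0.30, adjusted p = 0.0111) were the others. Src, a kinase gene of the same list, did not pass (0.00, adjusted p = 0.993). Egr1 spread widely, with 480, 397 and 1187 in Foxd3+CA-NFATc3 arrays against 1807, 1258 and 3932 in CA-NFATc3 arrays, and replicate 3 was the brightest of both groups. Its call ended without Foxd3+CA-NFATc3 replicate 1 or 2 or CA-NFATc3 replicate 1 or 3 (adjusted p up to 0.178), and that of Egr2 without the offset. With the same genes tested, Egr2 also lost its call without CA-NFATc3 replicate 3 (adjusted p = 0.0708), when 2 of the 4 were called.

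AP-1 and immediate early genes other than these were mostly not called in the fit without the replicate block. Of 13 tested, Jund, a Jun family member, was higher (0.47 ± 0.08, adjusted p = 0.00211), and 0 were lower, with 5 of the 13 at an unadjusted p under 0.05. With the replicate block 5 were lower, and the list median was -0.26. The call of Jund ended with the mean of its probe sets.

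Of 16 genes tested of the trophectoderm, the outer lineage that forms the placenta, 6 were lower with Foxd3+CA-NFATc3 and 10 did not pass, and the median was -0.46. With the replicate block 7 were lower and 2 higher. Elf5 and Cited1, of the 6, came to be tested only because they were over 65.8 in the 3 CA-NFATc3 arrays. Without CA-NFATc3 replicate 3 the lower count was 4 (6 with the same genes tested). Elf5, a transcription factor that maintains trophoblast stem cells, gave 1.89, 3.97 and 4.10 with Foxd3+CA-NFATc3, against 169, 118 and 184 with CA-NFATc3. It was thus near the lowest signals of the arrays with Foxd3+CA-NFATc3 and over the test's minimum in each CA-NFATc3 array (at least 2.39-fold, adjusted p = 2.01e-05). Cited1, a transcriptional coactivator, gave 45.9, 63.8 and 53.2 with Foxd3+CA-NFATc3, against 298, 248 and 628 with CA-NFATc3. The intermediate filament Krt19 gave 138, 155 and 237 with Foxd3+CA-NFATc3, against 463, 480 and 839 with CA-NFATc3 (-1.57 ± 0.26). Eomes, a T-box factor of trophoblast and mesendoderm, gave 200, 205 and 124 with Foxd3+CA-NFATc3, against 467, 507 and 587 with CA-NFATc3 (-1.42 ± 0.20). The groups overlapped in none of the 4, and they lay apart in 704 of all 711 genes called. Gata2 (-0.99) and Tfap2c (-0.48), chosen after their values were seen, were the other genes that fell. Cdx2, the factor that specifies the lineage, was not tested, with signals of 1.84 to 8.88 with Foxd3+CA-NFATc3 and 5.30 to 42.7 with CA-NFATc3. Of the 6 trophoblast markers 2 had a mean over 65.8 with Foxd3+CA-NFATc3 and 3 with CA-NFATc3, and their summed signal was 264 to 314 against 771 to 911.

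In primitive and visceral endoderm, the inner extraembryonic lineage, 4 of 14 genes were lower and the median was -0.36. Lrp2, the endocytic receptor megalin, gave 147, 73.1 and 112 with Foxd3+CA-NFATc3, against 369, 273 and 555 with CA-NFATc3 (-1.58 ± 0.24). The SOX factors Sox17 (-0.98 ± 0.25, adjusted p = 0.0275) and Sox7 (-0.81 ± 0.20, adjusted p = 0.0225) and the homeobox gene Rhox5 (-0.83 ± 0.11, adjusted p = 0.000252) were the others. The 4 genes did not overlap between the groups, but Sox17 lost its call without any 1 of 4 arrays (adjusted p up to 0.14) and Sox7 without any 1 of 3 (up to 0.141). Both calls also ended with the mean of probe sets, and that of Sox17 without the offset or with only the 6 arrays compared. Gata6, a master factor of the lineage, did not pass, at 35.7, 88.5 and 70.3 with Foxd3+CA-NFATc3 against 89.6, 103 and 143 with CA-NFATc3 (-0.59, adjusted p = 0.156). Without CA-NFATc3 replicate 1 or 3, or with the mean of probe sets, 2 were lower, against 7 with no filter or with all 18 arrays in 1 fit. The 6 endoderm markers summed to 397 to 448 with Foxd3+CA-NFATc3 and 644 to 938 with CA-NFATc3, and 2 of them had a mean over 65.8 in the first group, against 6 in the second. Several lay close to that value, Gata6 (64.8) and Sox17 (63.5) just under it with Foxd3+CA-NFATc3, and Gata4 (66.6) and Pdgfra (66.2) just over it with CA-NFATc3.

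Basement membrane genes, which stem cells switch on as they form endoderm, fell in part. Of 15 tested 4 were lower, for a median of -0.20. Col4a1, a chain of type IV collagen, gave 788, 788 and 732 with Foxd3+CA-NFATc3, against 2358, 2340 and 3440 with CA-NFATc3. Its partner chain Col4a2 gave 251, 271 and 298 with Foxd3+CA-NFATc3, against 612, 624 and 957 with CA-NFATc3. Both fell well beyond the replicate spread, by -1.75 ± 0.13 (adjusted p = 9.2e-07) and -1.29 ± 0.17 (adjusted p = 0.000164). The nidogens Nid1 (-0.52) and Nid2 (-0.48), which link collagen IV to laminin, fell less. The call of Nid1 ended with the mean of its probe sets. Col4a1 and Col4a2 start close together on opposite strands, and their windows are shown because they moved together. By the starts listed, each window lies downstream of the other gene's start, within the stretch that gene transcribes. The Col4a1 window is chr8:11312827-11313076 on the minus strand and the Col4a2 window is chr8:11312555-11312804 on the plus strand, each with no match to the 4 motifs.
Col4a1: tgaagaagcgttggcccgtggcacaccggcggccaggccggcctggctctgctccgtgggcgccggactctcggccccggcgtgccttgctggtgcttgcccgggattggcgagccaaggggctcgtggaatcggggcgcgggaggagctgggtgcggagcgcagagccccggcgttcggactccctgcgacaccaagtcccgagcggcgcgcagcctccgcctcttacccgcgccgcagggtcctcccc
Col4a2: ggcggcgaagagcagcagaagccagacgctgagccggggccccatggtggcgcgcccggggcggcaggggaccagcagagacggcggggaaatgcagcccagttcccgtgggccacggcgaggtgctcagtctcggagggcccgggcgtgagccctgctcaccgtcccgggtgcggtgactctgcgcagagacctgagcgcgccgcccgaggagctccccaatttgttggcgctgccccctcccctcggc

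**Figure D2:**
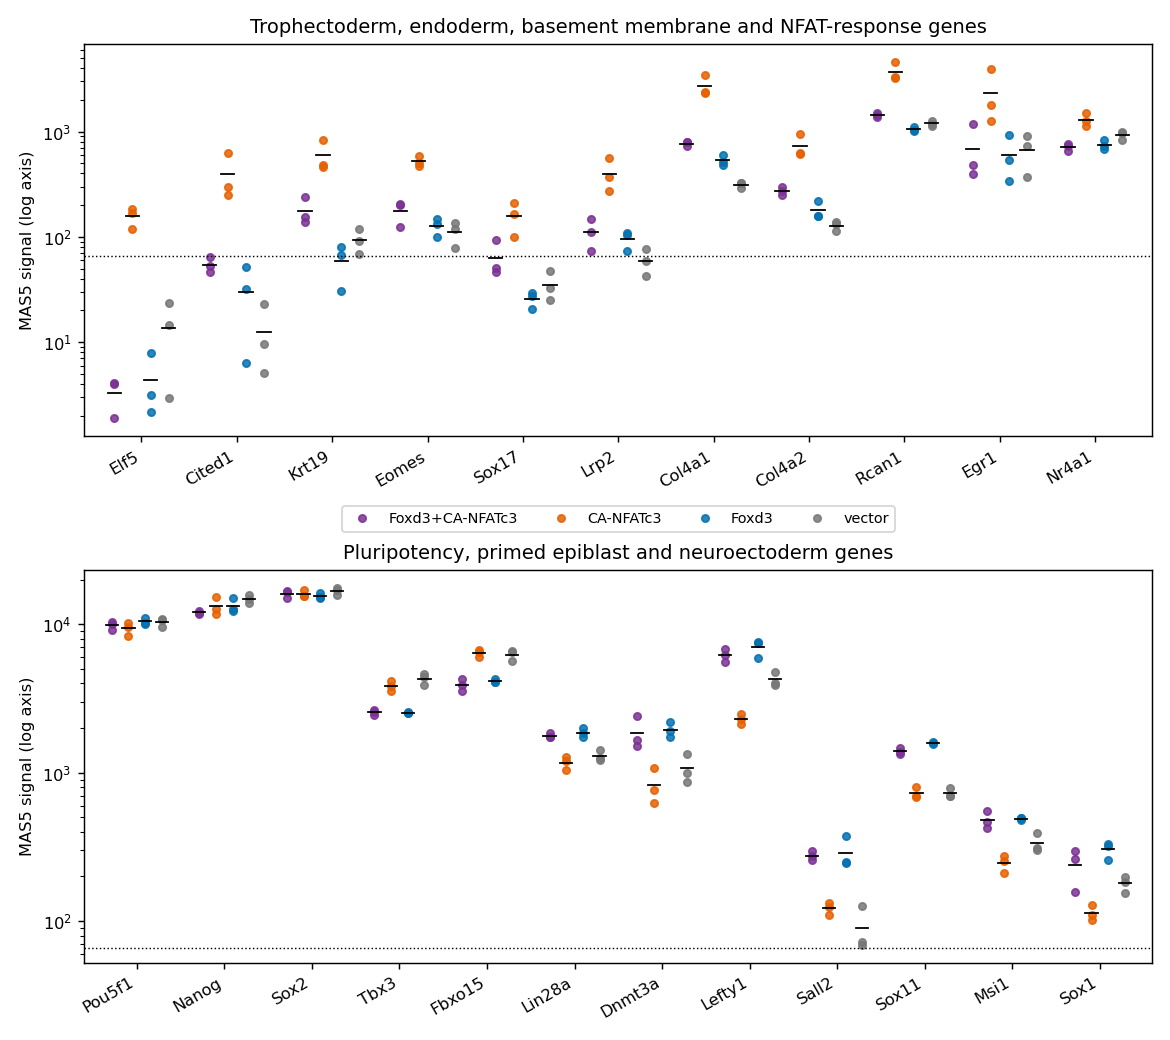
MAS5 signal per array on a log axis for lineage, basement membrane and NFAT-response genes (upper panel) and for pluripotency, primed epiblast and neuroectoderm genes (lower panel); points are arrays, bars are means of 3 arrays, and the dotted line is at 65.8. Upper-panel genes sit lower with Foxd3+CA-NFATc3 than with CA-NFATc3, whereas in the lower panel Sox11 and Lefty1 sit higher and Pou5f1 and Sox2 overlap.

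Of 16 YAP and TEAD targets 6 were lower and 1 higher (median -0.24). Without CA-NFATc3 replicate 3 the lower count was 3 (4 with the same genes tested). Cav1, the main protein of caveolae, gave 81.6, 81.5 and 95.2 with Foxd3+CA-NFATc3, against 715, 742 and 1380 with CA-NFATc3. Its partners Cav2 (-2.06 ± 0.25, at least 4.09-fold) and Cavin1 (-1.35 ± 0.11, adjusted p = 2.35e-06) fell too, and in all 3 the groups lay apart. The matricellular protein gene Ccn1 fell by 0.94 on the log2 scale (adjusted p = 0.00823). Without CA-NFATc3 replicate 3, Ccn1 lost its call (adjusted p = 0.053), and it lost it with the mean of its probe sets. Tead2, chosen after its value was seen, was the 1 that rose (0.56).

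Of 17 annexins, S100 proteins and galectins 8 were lower, for a median of -0.45, but 3 without CA-NFATc3 replicate 3 and 4 without Foxd3+CA-NFATc3 replicate 1. Besides S100g and Lgals7 they included S100a6, with 1060, 1183 and 1398 in Foxd3+CA-NFATc3 arrays against 3930, 3621 and 4700 in CA-NFATc3 arrays (-1.72 ± 0.12, adjusted p = 6.38e-07). Anxa2, a membrane-binding annexin, was lower (-0.95, adjusted p = 0.0122) but lost its call without Foxd3+CA-NFATc3 replicate 1 or CA-NFATc3 replicate 3 (adjusted p up to 0.0842) and with the mean of its probe sets. Among 21 keratin and junction genes 5 were lower (9 with the block or with array weights), and the median was -0.21. The tight junction proteins Cldn7 (-1.21 ± 0.16, adjusted p = 0.000198) and Ocln (-1.18 ± 0.12, adjusted p = 1.45e-05) and the desmosomal plakophilin Pkp2 (-0.62) were among them. In Ocln the groups were 307, 322 and 311 with Foxd3+CA-NFATc3 against 677, 699 and 897 with CA-NFATc3. Of 10 proteases and inhibitors 4 were lower, the cathepsins Ctsh (-1.14) and Ctsc (-0.75), the urokinase receptor gene Plaur (-0.62) and Timp2 (-0.57). With the same genes tested they were 2 without any 1 Foxd3+CA-NFATc3 replicate or CA-NFATc3 replicate 2, and 1 without CA-NFATc3 replicate 3. They were also 2 with the mean of probe sets. Plaur lost its call without any 1 array of either group, Timp2 without any 1 of 4 arrays and Ctsh without any 1 of 3 (adjusted p up to 0.101 for Ctsh).

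The 15 largest rises were likewise in genes of varied function. Hs6st2, which adds 6-O-sulphate to heparan sulphate, gave 807, 873 and 904 with Foxd3+CA-NFATc3, against 105, 77.8 and 117 with CA-NFATc3. The groups lay 6.81-fold apart (2.77 ± 0.15, adjusted p = 2.38e-08). Ms4a4d, a membrane-spanning protein of the MS4A family, gave 544, 372 and 647 with Foxd3+CA-NFATc3, against 41.4, 65.7 and 53 with CA-NFATc3 (at least 7.92-fold). Pkdcc, a secreted tyrosine kinase, gave 381, 308 and 278 with Foxd3+CA-NFATc3, against 49.9, 45.2 and 41.8 with CA-NFATc3 (2.18 ± 0.16, at least 4.90-fold). Cdkn1c, the imprinted cyclin-dependent kinase inhibitor p57, gave 1375, 904 and 1466 with Foxd3+CA-NFATc3, against 282, 263 and 259 with CA-NFATc3 (2.06 ± 0.18, adjusted p = 4.07e-06). That the groups of these genes did not overlap was again required by the rule that chose them. Zfhx3, a zinc finger homeobox factor, gave 628, 521 and 811 with Foxd3+CA-NFATc3, against 136, 129 and 156 with CA-NFATc3 (1.97 ± 0.15). Ccnd2, the D-type cyclin, gave 2068, 945 and 1852 with Foxd3+CA-NFATc3, against 648, 306 and 374 with CA-NFATc3 (1.79 ± 0.37, adjusted p = 0.00721), with replicate 2 the lowest of both groups. The remaining large rises were in Chst15, a chondroitin sulphotransferase (2.44, and 0.67 in its other probe set), Col1a2, Rgs5, the Wnt receptor Fzd2 (1.73), Cnr1, a cannabinoid receptor (1.56), the endocrine factor Neurog3 (1.54), the troponin Tnnt1 (1.51), Hoxb2 (1.5) and the ERK phosphatase Dusp9 (1.48). Cnr1 was at 0.05 in its other probe set and lost its call with the mean of the pair.

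Col1a2 and Rgs5 had their highest transfected-group means with Foxd3+CA-NFATc3, although the interaction described further on passed for Rgs5 and not for Col1a2 (1.20 ± 0.36, adjusted p = 0.207). Col1a2, a chain of type I collagen, gave 283, 285 and 391 with Foxd3+CA-NFATc3, against 40.2, 52.9 and 61.6 with CA-NFATc3 (2.07 ± 0.26, at least 4.86-fold). It averaged 71.7 ± 15.8 (SD, n = 3) with Foxd3 and 27.2 ± 21.0 with vector. Rgs5, an inhibitor of G protein signalling best known from pericytes, gave 328, 307 and 360 with Foxd3+CA-NFATc3, against 79.6, 73.0 and 54.9 with CA-NFATc3 (1.85 ± 0.20, adjusted p = 3.38e-05). It averaged 32.9 ± 9.22 with Foxd3 and 50.4 ± 20.7 with vector. Col1a2 is one of the 7 fibroblast markers, of which 3 had a mean over 65.8 with Foxd3+CA-NFATc3 and 2 with CA-NFATc3. The markers summed to 650 to 728 with Foxd3+CA-NFATc3 and 384 to 515 with CA-NFATc3. Col3a1, a chain of type III collagen among these markers, lay the other way, at 145, 101 and 124 with Foxd3+CA-NFATc3 against 184, 192 and 286 with CA-NFATc3 (-0.69, adjusted p = 0.0784). The fibroblast proteoglycans Lum (4.65 to 22.1 with Foxd3+CA-NFATc3, against 1.91 to 16.7 with CA-NFATc3) and Dcn (31.9 to 35.5, against 2.18 to 5.75) stayed under 65.8 in both groups. A part of fibroblasts in these rises was not tested. In the fibroblast matrix list of 8 genes, Col1a2 was the 1 that rose and Col5a1, a type V collagen chain, the 1 that fell (-0.66, adjusted p = 0.0488). The call of Col5a1 ended without each Foxd3+CA-NFATc3 replicate and without CA-NFATc3 replicate 2 or 3 (adjusted p up to 0.252).

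The core pluripotency factors did not differ beyond the replicate spread. Pou5f1 gave 9169, 10055 and 10342 with Foxd3+CA-NFATc3, against 10249, 9600 and 8306 with CA-NFATc3 (0.07, adjusted p = 0.724). Sox2 (0.00, adjusted p = 0.99) and Nanog (-0.13, adjusted p = 0.503) likewise overlapped between the groups. Of 28 naive and core pluripotency genes 4 were lower and 2 higher, for a median of -0.06. Fbxo15, a ubiquitin ligase subunit used as a stem cell reporter, gave 3552, 3904 and 4293 with Foxd3+CA-NFATc3, against 6689, 6507 and 5982 with CA-NFATc3 (-0.70 ± 0.08). The naive-state factor Tbx3 (-0.58 ± 0.08, adjusted p = 0.000198) fell, but not with the mean of its probe sets. Gbx2, a homeobox factor that supports self-renewal (-0.85, adjusted p = 0.0254), lost its call without Foxd3+CA-NFATc3 replicate 2 or 3 or CA-NFATc3 replicate 1 or 3 (adjusted p up to 0.122). The RNA-binding protein Lin28a, an inhibitor of let-7 maturation, rose (0.59 ± 0.09, adjusted p = 0.000605, but 0.06 in its other probe set). The lower count was 2 without Foxd3+CA-NFATc3 replicate 2 or CA-NFATc3 replicate 1 or 3.

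Primed epiblast genes were higher in part. Of 14 tested 4 were higher and 1, Foxd3, lower, and the median was 0.35. Lefty1, a Nodal inhibitor, gave 6171, 5588 and 6842 with Foxd3+CA-NFATc3, against 2139, 2288 and 2475 with CA-NFATc3 (1.42 ± 0.10, adjusted p = 8.61e-07). The de novo DNA methyltransferase Dnmt3a gave 2419, 1516 and 1653 with Foxd3+CA-NFATc3, against 1080, 767 and 625 with CA-NFATc3 (1.15 ± 0.20, adjusted p = 0.0018). Sall2, a zinc finger factor, gave 297, 273 and 258 with Foxd3+CA-NFATc3, against 109, 132 and 125 with CA-NFATc3 (1.00 ± 0.19). The groups of each gene lay apart. Otx2, an anterior epiblast factor, was the last that rose (0.60), and Pou3f1 (0.04) and Dnmt3b (0.33) did not pass. These 3 were named after their values were seen.

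Neuroectoderm genes gave the highest list median, 0.50, with 5 of 10 higher and 1 lower. Sox11, a SOX factor of early neurons, gave 1460, 1371 and 1344 with Foxd3+CA-NFATc3, against 690, 696 and 802 with CA-NFATc3 (0.90 ± 0.08, adjusted p = 6.56e-06). The RNA-binding protein Msi1, a marker of neural progenitors, was at 467, 554 and 425 with Foxd3+CA-NFATc3, against 255, 274 and 213 with CA-NFATc3 (0.88 ± 0.13). Sox1, the earliest specific marker of neuroectoderm, was at 261, 298 and 157 with Foxd3+CA-NFATc3, against 101, 128 and 111 with CA-NFATc3 (0.86 ± 0.19, adjusted p = 0.00947). Sox1 lost its call without Foxd3+CA-NFATc3 replicate 2 (adjusted p = 0.0533) and Msi1 with the mean of its probe sets. Sox21 went the other way (-0.88 ± 0.14, adjusted p = 0.000953). The higher count was 3 without any 1 Foxd3+CA-NFATc3 replicate, without CA-NFATc3 replicate 2 or 3, or with the mean of probe sets.

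Imprinted genes moved in both directions, 6 of 14 higher and 2 lower. Besides Cdkn1c, the noncoding RNA gene Rian was higher (0.56 ± 0.10, adjusted p = 0.00256). The growth factor Igf2 gave 372, 230 and 271 with Foxd3+CA-NFATc3, against 908, 845 and 1271 with CA-NFATc3 (-1.69 ± 0.23). Sgce, a sarcoglycan, was also lower (-1.16), though not with the mean of its probe sets. The list median was -0.01.

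In Nodal, activin and BMP signalling 3 of 21 genes rose and 3 fell (7 and 3 with the block), for a median of 0.15. The ligand Bmp2 gave 314, 391 and 275 with Foxd3+CA-NFATc3, against 87.2, 146 and 83.2 with CA-NFATc3 (1.40 ± 0.20). Fst, the activin-binding follistatin, rose (1.07 ± 0.20), and Smad6, an inhibitor of BMP signalling, fell (-1.56 ± 0.16, adjusted p = 1.95e-05). Of the retinoic acid genes 2 of 9 rose and 2 fell. The binding protein Crabp2 gave 451, 327 and 444 with Foxd3+CA-NFATc3, against 1136, 904 and 1460 with CA-NFATc3 (-1.44 ± 0.20). Stra8, a gene of meiotic entry named for its induction by retinoic acid, gave 259, 286 and 333 with Foxd3+CA-NFATc3, against 110, 74.6 and 124 with CA-NFATc3 (1.28 ± 0.18). Crabp2 and Cyp26a1 were thus lower while Stra8 and the receptor Rarg (0.67) were higher. The call of Rarg ended with the mean of its probe sets.

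In the heparan and chondroitin sulphate list 4 of 21 were higher, led by Hs6st2 and Chst15, and 2 were lower, the 3-O-sulphotransferase Hs3st3b1 (-1.31 ± 0.21) and the core protein Sdc4 (-0.95 ± 0.19). The list median was -0.03. Of 8 EMT factors and cadherins, Zeb1 (0.62) and Vim (0.46) were higher, and Twist1, a factor of mesenchyme and neural crest, was lower (-1.80 ± 0.27, at least 3.21-fold). The call of Zeb1 ended with the mean of its probe sets. Of 6 chemokines tested, Cxcl10 (1.32) and Cxcl12 (1.08) were higher and Cxcl1 was lower (-1.01). Both higher genes were under 65.8 in every CA-NFATc3 array. Cxcl12 lost its call without Foxd3+CA-NFATc3 replicate 1 (adjusted p = 0.0536). Cxcl1 lost its call without CA-NFATc3 replicate 3 (adjusted p = 0.0564).

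Several groups showed few or no calls in limma. Of 20 replication and mitosis genes 0 were called, 1 with an unadjusted p under 0.05. Of 10 interferon-response genes 0 were called (3 unadjusted), of 11 MHC class I genes 0 (0 unadjusted) and of 14 cholesterol synthesis genes 0 (3 unadjusted). With the replicate block 1 interferon-response gene was higher and 1 cholesterol synthesis gene lower. In the p53, integrated stress and glutathione lists the called genes were Sesn2 (0.50), a stress-induced regulator counted in the first pair of lists, Perp (-0.84) and Gpx4 (0.43), a lipid peroxidase. Of 18 G1 cyclins and inhibitors, Ccnd2 and Cdkn1c were the 2 called. Of 15 FGF and ERK genes the receptor Fgfr2 fell (-0.78 ± 0.15, but -0.04 in its other probe set). In the Wnt list Wnt7b (-0.99) and Tcf7l2 (-0.64) fell and the repressor Tcf7l1 rose (0.46), and of the ephrins Efnb1 rose (0.79, adjusted p = 0.0485). Sesn2, Efnb1 and Tcf7l2 each lost the call without any 1 of 4 arrays (adjusted p up to 0.203 for Efnb1), and Gpx4 and Tcf7l1 lost it without CA-NFATc3 replicate 3. With the replicate block the FGF and ERK list had 4 lower, the ephrin list 3 higher, the integrated stress list 1 higher and 3 lower, the glutathione list 3 higher and 2 lower, the p53 list 2 higher and 1 lower, the Wnt list 2 higher and 2 lower, and the G1 list 3 higher and 1 lower.

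**Figure D3:**
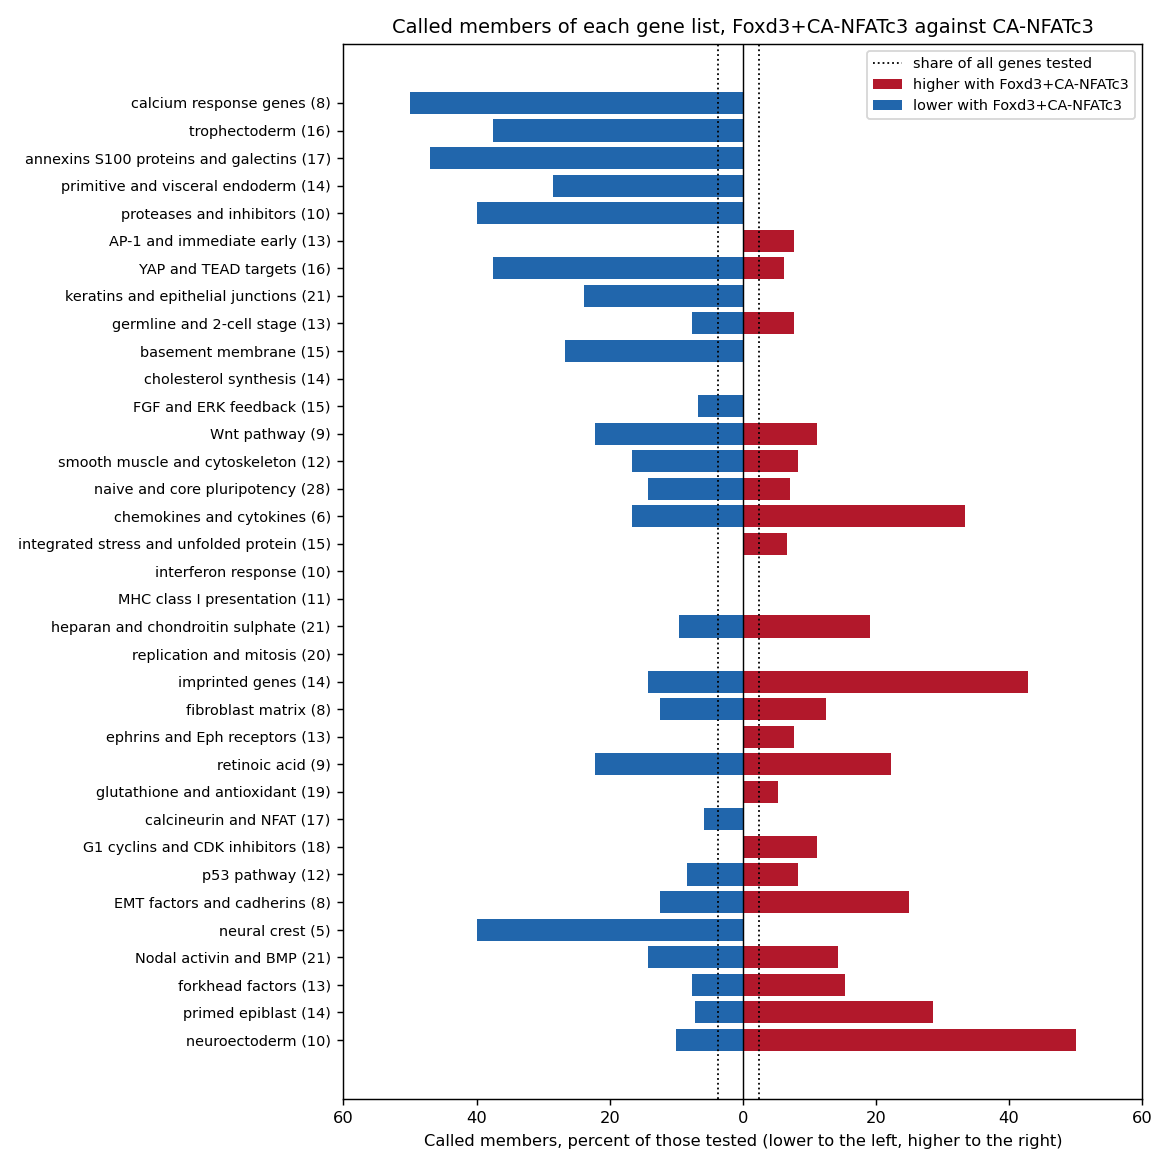
Share of the tested members of each gene list (number in brackets) called lower (bars to the left) or higher (bars to the right) with Foxd3+CA-NFATc3 than with CA-NFATc3, in percent and in the order of the list medians, lowest at the top. Dotted lines are the shares of all genes tested, 3.69% lower and 2.44% higher; calcium response genes stand at the top with 4 of 8 lower and neuroectoderm at the bottom with 5 of 10 higher.

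The same label change without CA-NFATc3, Foxd3 against vector, is a difference of group means that share no array with the first difference. Both differences came from the same fit of all transfected arrays. Their SEs and calls therefore share the variance estimate of each gene and are not separate tests. For Foxd3 against vector 334 genes were called (2.88%), 198 higher (1.71%) and 136 lower (1.17%), and 783 with the replicate block. Of the 283 genes higher with Foxd3+CA-NFATc3 than with CA-NFATc3, 115 (40.6%, and 58.1% of the 198) were also higher with Foxd3 than with vector, and 253 had a positive difference. Of the 428 lower genes 49 (11.4%, and 36.0% of the 136) were also lower with Foxd3 than with vector, and 300 had a negative difference. With only the groups of each comparison fitted, the shared counts were 98 and 37. With the block they were 212 and 146, and without Foxd3 replicate 3 they were 72 and 23. The lower count was also 27 without vector replicate 2, 25 without vector replicate 3 and 30 with the mean of probe sets, against 76 with all 18 arrays in 1 fit and 77 with array weights. Hs6st2 (3.38 ± 0.15), Ms4a4d (2.54), Cdkn1c (2.28 ± 0.18), Pkdcc (2.21), Zfhx3 (1.85) and Sox11 (1.09) rose with Foxd3 against vector too, and Tbx3 (-0.75), Mylpf, a fast muscle myosin light chain (-0.73), and Fbxo15 (-0.59) fell. Across the 11610 genes the differences correlated at Pearson r = 0.376 and Spearman rho = 0.333, a description over genes, which are not independent.

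**Figure D4:**
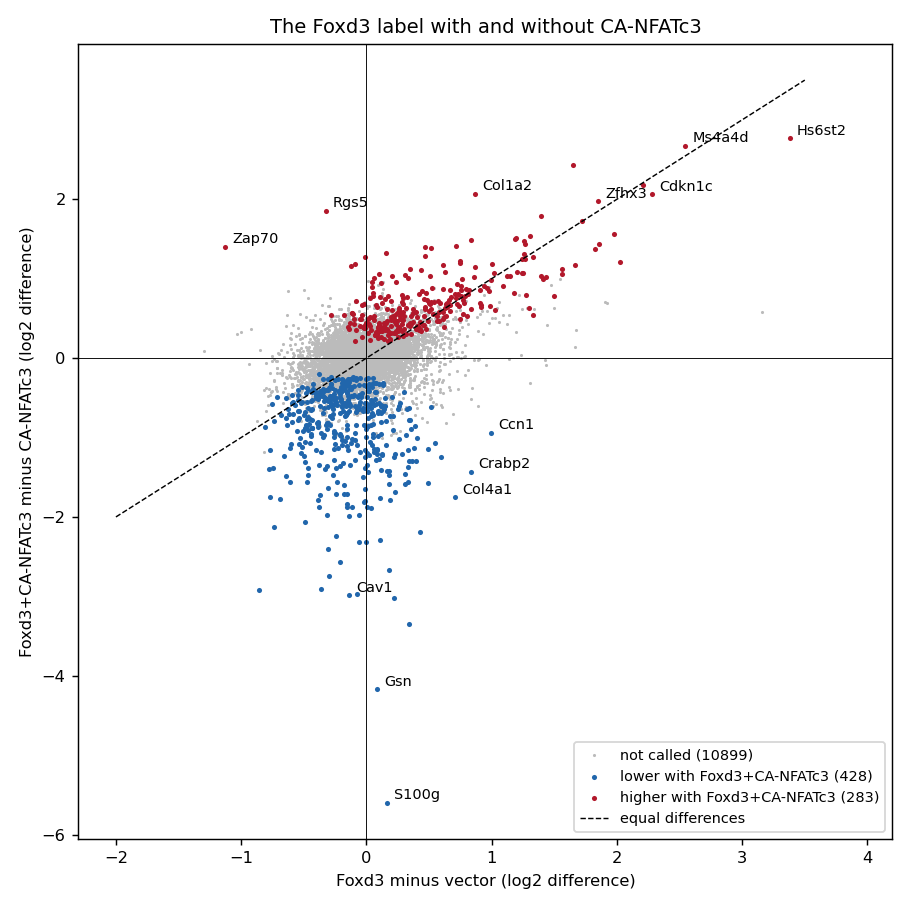
Log2 difference of Foxd3+CA-NFATc3 minus CA-NFATc3 (vertical axis) against Foxd3 minus vector (horizontal axis) for the 11610 genes tested; red and blue points were called higher and lower in the first comparison, and the dashed line marks equal differences. Hs6st2, Ms4a4d and Cdkn1c lie near or right of the dashed line, whereas S100g and Gsn lie far down at a horizontal value near 0.

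Whether a gene's difference depended on CA-NFATc3 was tested by the interaction, Foxd3+CA-NFATc3 minus CA-NFATc3, less Foxd3 minus vector. It was called for 94 genes (0.81%), 84 negative (0.724%) and 10 positive (0.0861%), and for 245 with the block. The count was 48 without CA-NFATc3 replicate 3 and 60 without Foxd3 replicate 3. Of the 428 lower genes 74 had a negative interaction, and of the 283 higher genes 7 had a positive one and 1 a negative one. The interaction was -5.76 ± 0.27 for S100g and -4.26 ± 0.27 for Gsn. S100g was under 65.8 in both the Foxd3 and the vector group, and Elf5 averaged 4.38 with Foxd3 and 13.7 with vector. No fall can be read at such signals. For such genes the interaction largely repeats the first comparison and cannot show a dependence on CA-NFATc3. Col4a1 fell with Foxd3+CA-NFATc3 against CA-NFATc3, yet rose with Foxd3 against vector (0.70, adjusted p = 0.00689), and its interaction was -2.46 ± 0.19. Crabp2 and Ccn1 showed the same opposite signs, at 0.83 (adjusted p = 0.0381) and 0.99 (adjusted p = 0.011) for Foxd3 against vector. Efnb2, the ligand ephrin-B2, chosen after its values were seen, had an interaction of -2.58. It averaged 875 with Foxd3+CA-NFATc3, 568 with CA-NFATc3, 1238 with Foxd3 and 108 with vector.

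Positive interactions were led by Zap70 and Rgs5. Zap70, a tyrosine kinase of T cell receptor signalling, gave 364, 406 and 194 with Foxd3+CA-NFATc3, against 126, 131 and 51.7 with CA-NFATc3, and averaged 123 ± 34.9 (SD, n = 3) with Foxd3 and 307 ± 68.9 with vector. It thus rose in one comparison and fell in the other (-1.13, adjusted p = 0.0405), with an interaction of 2.53 ± 0.40. Its other probe sets were at -0.22 and 0.29 for Foxd3+CA-NFATc3 against CA-NFATc3, and its call ended with their mean. Stra8 averaged 292 ± 37.4 with Foxd3+CA-NFATc3, 103 ± 25.6 with CA-NFATc3, 312 ± 30.5 with Foxd3 and 319 ± 72.5 with vector, so that of the transfected groups the CA-NFATc3 arrays stood lowest.

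In Foxd3 conditional knockout cells, tamoxifen against DMSO called 4165 of 12094 genes (34.4%), 2122 higher (17.5%) and 2043 lower (16.9%). Foxd3 was lower with tamoxifen by -2.08 (adjusted p = 0.000146), the direction of the label. Over the 11224 genes tested in both fits, 101 of the 272 genes higher with Foxd3+CA-NFATc3 than with CA-NFATc3 were lower with tamoxifen (37.1%, beside 18% of all) and 47 were higher (17.3%, beside 15.6%). Of 402 lower genes, 157 were higher with tamoxifen (39.1%) and 32 lower (7.96%). The median tamoxifen difference was -0.13 in the higher and 0.18 in the lower genes. Across genes the correlation was weak, at Pearson r = -0.145 and Spearman rho = -0.135. Cdkn1c (-0.59), Dnmt3a (-0.78), Dusp9 (-0.66) and Sox11 (-0.65) rose with Foxd3+CA-NFATc3 and fell with tamoxifen. Cav1 (1.98), Ptgs2 (2.14), Srgn (1.65) and S100a6 (1.20) fell with Foxd3+CA-NFATc3 and rose with tamoxifen. Col1a2 rose in both, by 2.72 with tamoxifen, from arrays that averaged 7595 ± 680 (SD, n = 3) with tamoxifen and 1130 ± 113 with DMSO. Every other fibroblast marker was called higher with tamoxifen too: Dcn (3.54), Postn (3.49), Lum (2.21), Col3a1 (2.10), Col1a1 (1.24) and Thy1 (1.10). A part of fibroblasts in the tamoxifen differences was not tested. The knockout cells are another line, and line and plasmid treatment cannot be told apart between the fits.

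**Figure D5:**
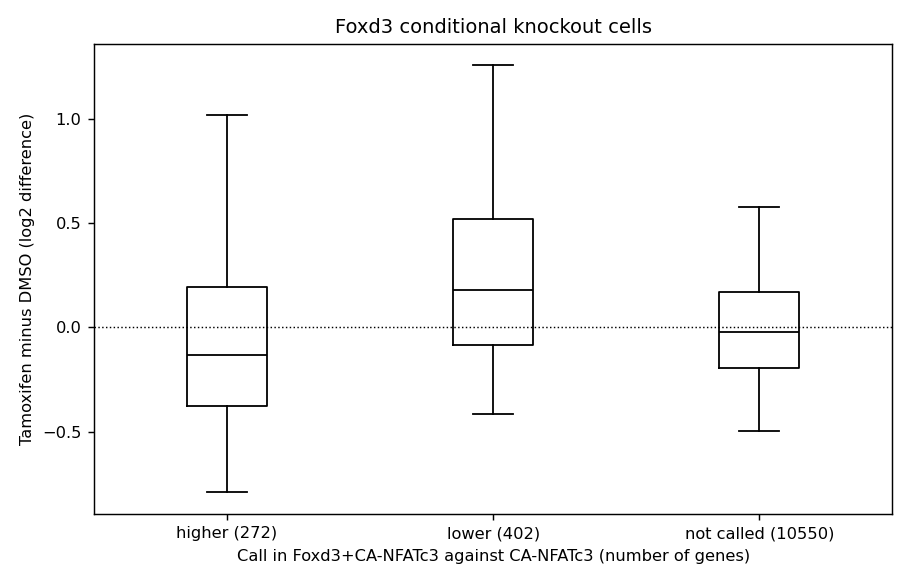
Log2 difference of tamoxifen minus DMSO in Foxd3 conditional knockout cells for genes higher (272), lower (402) or not called (10550) with Foxd3+CA-NFATc3 against CA-NFATc3; boxes span the quartiles with the median as a line, and whiskers reach the 5th and 95th percentiles. The median is -0.13 for the higher and 0.18 for the lower genes.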

How the data were processed

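The authors deposited linear intensity values, 1 per probe set of an Affymetrix mouse array; the submitters' processing notes name MAS5 for them, with no version. Their scaling was read from the values: trimmed by 2% at each end, every array averaged 500. Detection calls were not used here.

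Of 45101 probe sets 64 were controls, and 34958 had 1 gene symbol, of which 34754 matched the GRCm38.p6 gene table by Entrez number. They covered 18194 genes, 9012 with several probe sets, and the probe set brightest on average over the 18 arrays stood for its gene. Genes with a signal of at least 65.8, the median of all deposited values, in 3 arrays were tested on log2(signal + 32). The 12 transfected arrays were fitted together and the knockout arrays apart, with limma 3.58.1 in R 4.3.3 (eBayes with a variance trend, two-sided, Benjamini-Hochberg over all genes tested) at an adjusted p under 0.05. The script was tested on simulated data. Plots used matplotlib 3.10.9 under Python 3.11.15.

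Named genes were the 15 largest rises and falls whose groups did not overlap, up to 4 called members of each of 35 lists, the 6 largest interactions in each direction, and Elf5, Fgf5, Sox17, Gata6, Cdx2, Sox2, Nanog, Pou5f1, Src, Rcan1, Foxd3 and the NFAT genes (Nfatc1, Nfatc2, Nfatc3, Nfatc4). Any other gene named is marked as picked with its values known. The comparison, the members and the lists were chosen with earlier results of these data known. List members under the signal minimum, Fgf5 among them, were not tested.

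Replicate numbers were taken to pair the arrays because, across genes, residuals of same-numbered arrays had correlations of 0.126 to 0.204 between Foxd3+CA-NFATc3 and CA-NFATc3 (3 pairs), and at -0.177 to -0.000853 for different numbers (6 pairs). Over all transfected groups 18 such pairs lay at 0.104 to 0.315. This pairing is read from the data, not from the labels, and blocked counts are given where the block moved a count by over 1.5 times, in the report or at the end. Alternatives were quantile normalization, other offsets, filters and probe set rules, other sets of arrays, array weights, the block and leaving out each array. Leaving out an array repeated the signal minimum, so genes over it in 3 arrays of 1 group were then not tested. It was therefore also run with the tested genes kept, an alternative chosen after seeing the data.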

Additional observations from a re-analysis of the deposited data

Results flagged for a closer look

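In the genes below the difference between Foxd3+CA-NFATc3 and CA-NFATc3 was not the same as that between Foxd3 and vector by the test of the interaction (limma adjusted p under 0.05), whose log2 values are given. Groups of 3 arrays are too small for a check of single outlying arrays.

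Negative interactions were those in which the difference made by the label Foxd3 was lower with CA-NFATc3 than without it. Elf5, Cited1, Cyp26a1, Mgp, Tac1 and Srgn were over 65.8 only in the 3 CA-NFATc3 arrays, and S100g was under it with Foxd3 and with vector. No fall with Foxd3 against vector could be read in these genes. Their interactions largely repeat the first comparison and cannot show a dependence on CA-NFATc3. They included the calcium-binding, cytoskeletal and secreted proteins S100g (-5.76), Gsn (-4.26), Lgals7 (-3.69), Dmkn (-3.23) and Spink1 (-2.55). They also included Mgp (-2.40), Tac1 (-2.36), Srgn (-2.26), Cryab (-2.07) and S100a6 (-1.35). Among membrane and junction genes they were Cav1 (-2.85), Cavin1 (-1.22), Cldn7 (-1.29) and Ocln (-1.24). Among calcium-response and inflammatory genes they were Ptgs2 (-2.84), Cxcl1 (-1.41) and Rcan1 (-1.14). Retinoic acid genes were Cyp26a1 (-2.90) and Crabp2 (-2.27), and the endoderm receptor gene Lrp2 was at -2.07. Trophectoderm genes were Cited1 (-2.62), Elf5 (-2.10) and Eomes (-1.59). Matrix and growth factor genes were Col4a1 (-2.46), Col4a2 (-1.69), Ccn1 (-1.94) and Igf2 (-1.92), and the others were Dgkk (-2.44), Cobll1 (-2.31), Twist1 (-1.79) and Fgfr2 (-1.11).

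Positive interactions were fewer, 10 over all genes tested. Those of the named genes were Zap70 (2.53), Rgs5 (2.17), Stra8 (1.29), AW551984 (1.28), Lefty1 (0.70) and Adgre5 (0.65). Adgre5, an adhesion receptor of leukocytes, did not differ beyond the spread between Foxd3+CA-NFATc3 and CA-NFATc3 (0.07, adjusted p = 0.795) but was lower with Foxd3 than with vector (-0.59, adjusted p = 0.00185).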

How the results depend on the processing

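Of 1881 values of 113 named genes under the alternatives, 1787 stayed on the same side of the threshold and 94 lost the call. No named gene called in the report changed sign, while the uncalled Src, Sox2, Nfatc2, Nfatc3 and Pou5f1 did. Between 57.6% and 62.9% of called genes were lower with Foxd3+CA-NFATc3 in the settings that kept all arrays. Of 1190 list counts under the alternatives, 155 moved by over 1.5 times. For Foxd3+CA-NFATc3 against CA-NFATc3 the 711 calls ranged from 385 (without CA-NFATc3 replicate 3) to 585 with any 1 array left out, and from 523 to 1258 otherwise. The highest count came from the replicate block, which held all 711. Up to 35 of the 711 were not tested when an array was left out, because they passed the signal minimum in too few of the remaining arrays. With the same genes tested, chosen after seeing the data, the ranges with 1 array left out were 416 to 630 (416 without CA-NFATc3 replicate 3), 56 to 120 for the interaction, 158 to 282 for Foxd3 against vector (187 without vector replicate 3) and 3139 to 4373 for tamoxifen against DMSO. For the interaction, 94 calls became 161 with all 18 arrays in 1 fit, 245 with the replicate block and 173 with array weights, and 48 to 103 with any 1 array left out (48 without CA-NFATc3 replicate 3, 60 without Foxd3 replicate 3). For Foxd3 against vector, 334 became 220 with the mean of probe sets, 783 with the replicate block and 552 with array weights, and 158 to 282 with any 1 array left out (158 without Foxd3 replicate 3, 186 without vector replicate 3). For tamoxifen against DMSO, 4165 became 6330 with all probe sets singly and 4027 with the replicate block, and 2974 to 4361 with any 1 array left out. The 115 genes shared with Foxd3 against vector and higher became 212 with the replicate block and 72 to 107 with 1 array left out. The 49 shared and lower became 30 with the mean of probe sets, 76 with all 18 arrays, 146 with the replicate block and 77 with array weights, and 23 to 48 with 1 array left out; these shared counts were added after seeing the data. The causes were otherwise not tested. The block ended the call of no named gene. It also moved list counts not given above, adding 1 higher gene each in endoderm (1), calcineurin and NFAT (1), calcium response (1), YAP and TEAD (2), keratins and junctions (1), fibroblast matrix (2), smooth muscle (2) and proteases (1), and it gave 2 higher and 3 lower germline genes and 4 higher and 3 lower forkhead genes. With the mean of probe sets Ctsc, Timp2, Sesn2, Tcf7l1, Tcf7l2 and Fgfr2 lost their calls as well. Signals under 65.8 carry little information, so folds there depend on the offset.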

Other observations

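Genes of the Hoxb cluster, chosen after their values were seen, differed among themselves. Hoxb2 (1.5 ± 0.26, limma adjusted p = 0.00188) and Hoxb3 (1.38 ± 0.25, adjusted p = 0.00256) were higher with Foxd3+CA-NFATc3 than with CA-NFATc3, whereas Hoxb4 (0.50, adjusted p = 0.52) and Hoxb9 (-0.07, adjusted p = 0.956) did not pass. Hoxb2 averaged 172 with Foxd3+CA-NFATc3, 38.8 with CA-NFATc3, 89.9 with Foxd3 and 21.4 with vector. Hoxb3 averaged 112 with Foxd3+CA-NFATc3, 23.6 with CA-NFATc3, 65.3 with Foxd3 and 36.8 with vector.

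Cd24a, a surface glycoprotein of progenitor cells also chosen after its value was seen, averaged 5921 with Foxd3+CA-NFATc3 and 2164 with CA-NFATc3 (1.44 ± 0.09), and 7336 with Foxd3 and 3010 with vector (1.27). Both differences were positive, and the interaction was 0.18 (adjusted p = 0.814).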
